A study of Mus musculus with 15 samples.

Results

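The comparison described here set mouse embryonic fibroblasts (MEFs) late after CRISPR activation of Fosl2, the gene of the transcription factor Fra2, against fibroblasts given a scrambled guide for the same time. It used 6 of the 15 libraries of the series, 3 late Fra2 and 3 late scrambled control libraries, chosen by their labelled guide and time. It was described across 206367 consensus peaks, which are regions of open chromatin on build mm10, and across the 18301 protein-coding genes nearest to them. All 6 libraries came from cells labelled C57/B16 background that carried a CRISPRa-VPR-mCherry construct, an activator that guide RNAs bring to a chosen gene. Guides were delivered by lentivirus, and cells positive for both mCherry and the fibroblast surface protein THY1 were sorted before Omni-ATAC-seq, in which a transposase cuts accessible DNA and reads per peak measure accessibility. The sample labels place the late time at day 10 and the series design at day 11, so it is called late here. The other 9 libraries were early Fra2, early control and Ezh2 inhibitor samples. The sources used here do not say whether replicates were separate cultures, so p-values measure only the spread between libraries, which may be technical. Sorting by mCherry and THY1 does not show how much Fra2 protein each cell made, and Fra2 protein was not measured in these files.

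Fra2 is a member of the Fos family. Fos proteins pair with Jun proteins to form AP-1, a dimer that binds a short palindromic DNA site, mostly in enhancers far from genes, and works with remodelling complexes at closed chromatin. In fibroblasts AP-1 acts downstream of growth factor and wound signals, and its classical targets include matrix proteases and growth factor genes.

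The late libraries held between 13263123 and 23410553 reads in peaks, and 3 reads in a peak corresponded to 0.128 to 0.224 CPM, the unit of accessibility here, in which counts are scaled to a common library size. The first principal component held 45% of the variance of the 6 libraries and separated the Fra2 libraries from the controls, whereas late control 1 stood apart on the second, which held 18.5%. Correlations of log2 CPM across peaks were 0.911 to 0.939 within groups and 0.858 to 0.881 between them, a description over peaks that are not independent. No pair of replicates agreed within counting noise. Promoter peaks were present at 6 of 12 fibroblast marker genes, with a median of 13.7 CPM in the controls, and none of them was called. Of the marker genes of 6 other cell types, 2 to 5 of 12 had a promoter peak, and their medians ran from 3.86 to 8.28 CPM. The median of all promoter peaks in the controls was 7.12 CPM. Start sites were at hand for 17492 of 21887 protein-coding genes, so a missing promoter peak need not mean closed chromatin. The fibroblast markers Thy1, Col1a1 and Dcn also lacked one, and these counts do not measure cell identity.

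Promoter sequences are shown first, because the rare promoters called higher and the many called lower differed in short sequence motifs. Each line gives the 250 bases before an annotated start site, 5′ to 3′ on the strand of the gene, from the RefSeq promoter table of GRCm38.p6, which has the coordinates of mm10. Odaph (a tooth enamel gene, chr5:91987223-91987472, plus strand), Mmp10 (stromelysin 2, chr9:7502092-7502341, plus strand) and Mmp1b (a homologue of interstitial collagenase, chr9:7388027-7388276, minus strand) were at promoter peaks called higher, and capitals mark the AP-1 match.
Odaph: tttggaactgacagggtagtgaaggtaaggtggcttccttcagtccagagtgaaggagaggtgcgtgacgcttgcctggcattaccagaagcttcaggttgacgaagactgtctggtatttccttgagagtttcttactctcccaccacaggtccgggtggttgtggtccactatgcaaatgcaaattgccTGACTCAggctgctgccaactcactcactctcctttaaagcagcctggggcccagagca
Mmp10: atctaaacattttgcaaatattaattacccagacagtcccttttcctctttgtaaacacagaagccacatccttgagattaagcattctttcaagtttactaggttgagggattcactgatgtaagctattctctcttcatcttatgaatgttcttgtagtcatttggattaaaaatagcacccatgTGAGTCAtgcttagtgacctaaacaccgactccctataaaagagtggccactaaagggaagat
Mmp1b: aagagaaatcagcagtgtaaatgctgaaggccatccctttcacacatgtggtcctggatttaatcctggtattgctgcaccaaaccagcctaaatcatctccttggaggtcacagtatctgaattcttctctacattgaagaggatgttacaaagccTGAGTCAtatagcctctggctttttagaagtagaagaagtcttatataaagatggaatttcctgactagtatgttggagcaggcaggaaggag
Gstm2 (a glutathione transferase, chr3:107986421-107986670, minus strand) and Mcm6 (a subunit of the replicative helicase, chr1:128359706-128359955, minus strand) were at promoter peaks called lower, and capitals mark the CCAAT box on either strand.
Gstm2: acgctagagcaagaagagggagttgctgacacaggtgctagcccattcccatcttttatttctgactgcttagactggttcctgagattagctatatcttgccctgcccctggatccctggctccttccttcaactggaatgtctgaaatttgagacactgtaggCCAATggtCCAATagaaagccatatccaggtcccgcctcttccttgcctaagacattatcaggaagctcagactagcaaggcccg
Mcm6: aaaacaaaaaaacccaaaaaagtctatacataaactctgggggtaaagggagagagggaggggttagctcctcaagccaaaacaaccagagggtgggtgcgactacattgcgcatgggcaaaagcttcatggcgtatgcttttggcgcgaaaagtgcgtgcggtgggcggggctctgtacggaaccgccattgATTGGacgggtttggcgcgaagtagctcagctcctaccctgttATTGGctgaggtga
The window before the start site of Fosl2 itself (chr5:32136222-32136471, plus strand) is shown because the guides were directed to this gene, and it held no match to the AP-1 letters.
Fosl2: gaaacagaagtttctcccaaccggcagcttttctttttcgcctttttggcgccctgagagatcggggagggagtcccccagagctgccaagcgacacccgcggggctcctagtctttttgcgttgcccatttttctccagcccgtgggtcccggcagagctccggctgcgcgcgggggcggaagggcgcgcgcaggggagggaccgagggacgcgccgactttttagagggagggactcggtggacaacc

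With late Fra2 activation the share of peaks called higher was largest far from genes, and the share called lower was largest at promoters. A peak was called when edgeR's quasi-likelihood test gave an adjusted p (Benjamini-Hochberg over 206349 tested peaks) under 0.05. By this rule 13297 peaks rose (6.44%) and 7306 fell (3.54%), together 9.98% of those tested. Higher peaks went from a median of 2.53 CPM in the controls to 4.64 CPM in the Fra2 libraries, with a median log2 fold change of 0.87, and lower peaks went from 7.52 to 4.87 CPM, with a median of -0.63. A change of 1 log2 unit or more was seen at 4560 higher and 911 lower peaks. All 3 Fra2 libraries lay above all 3 controls at 34519 of the tested peaks (16.7%) and below them at 30068 (14.6%), called or not. Groups that do not overlap at a single peak are therefore common. Without late control 1 the counts were 11644 higher and 7608 lower. They dropped to 7706 and 3038 without late control 2, to 6391 and 2441 without late control 3, to 7031 and 3032 without late Fra2 1, and to 7148 and 2495 without late Fra2 2. Without late Fra2 3 there were 9601 higher and 3998 lower peaks. The share of calls that were higher depended on the scaling: it was 64.5% with TMM factors over all peaks and 95.1% when the factors came from peaks at gene ends alone, which shifted the median of all peaks from -0.01 to 0.23. Gene ends here were both the start and the end of a protein-coding gene. The 26743 peaks within 1 kb of either therefore include promoter peaks. Differences between classes of peaks are therefore given beside each direction.

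The shares of gains and losses differed by position. By number, gene bodies held the most of both, with 6312 higher and 3048 lower peaks. A promoter peak was one whose centre lay within 1 kb of a start site in the promoter table, and of 20918 tested only 111 rose (0.531%) while 2117 fell (10.1%). Their median log2 fold change was -0.25. With gene-end scaling it was -0.01, with 587 higher and 518 lower, and with loess scaling -0.14, with 189 higher and 1396 lower. Gene-end scaling takes promoter peaks into its factors and so pulls their median toward 0. TMM over all peaks and loess hold the median of all peaks near 0 (-0.01 and -0.02). A loss at promoters and a gain elsewhere thus cannot be told apart under any of these scalings. At the other extreme, 2767 of 23377 peaks over 100 kb from any protein-coding gene rose (11.8%) and 359 fell (1.54%), with a median of 0.21. That median was 0.44 with gene-end scaling and 0.15 with loess, so the distant peaks lay above the promoters under each of these scalings, by the least with loess. Between these classes, 6.34% of gene-body peaks rose and 3.06% fell, and 7.37% and 2.34% of peaks 10 to 100 kb from a gene. The share called higher climbed with each distance bin, from 3.56% at 1 to 5 kb from a start site to 10.6% beyond 200 kb. These bins leave out peaks on chromosomes without a listed start site, such as chromosome 18. Peaks at an unlisted start site count as farther away. Without late control 1 the promoter counts were 90 higher and 2888 lower. Lower promoter counts dropped to 576 without late control 2, 483 without late control 3, 740 without late Fra2 1, 501 without late Fra2 2 and 964 without late Fra2 3, with 53 to 85 higher.

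**Figure D1:**
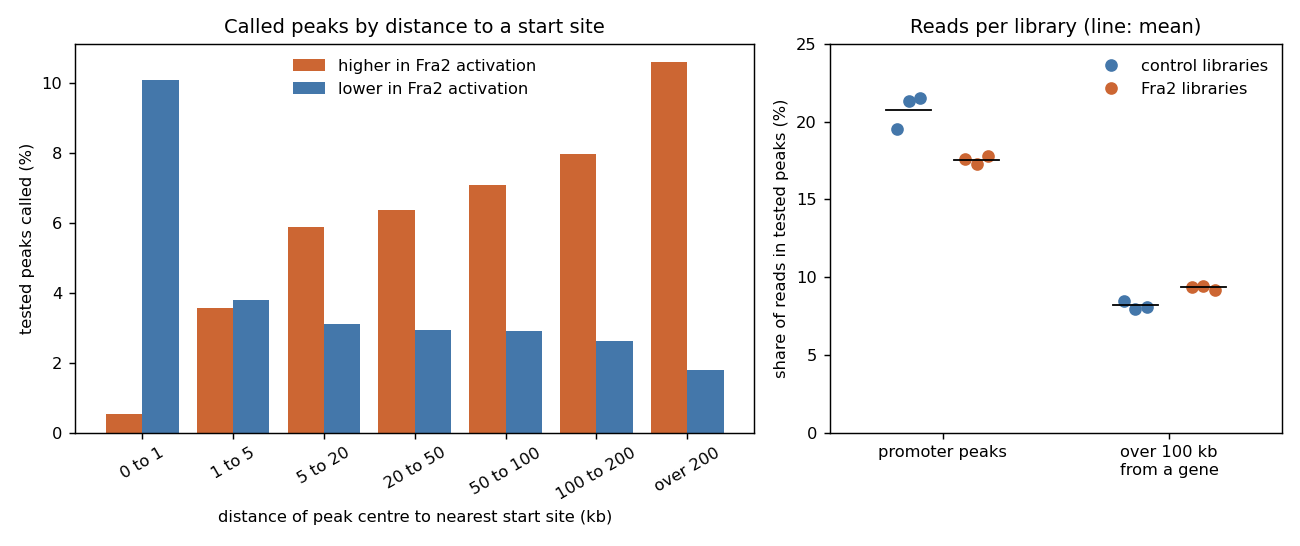
Left, share of tested peaks called higher or lower (%, bars from 0) by distance from the peak centre to the nearest listed start site (kb). Chromosome 18, which has none, is left out. Right, share of the reads in tested peaks (%) per library, points for libraries and lines for means of 3. The higher bars rise from 0.531% within 1 kb to 10.6% beyond 200 kb with TMM scaling, and the 3 Fra2 libraries lie below the controls at promoters and above them over 100 kb from a gene.

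The same relative shift was visible in the reads themselves, with no model. These are shares of a whole, so a gain in any class of peaks lowers the share of the others. Promoter peaks took 19.5, 21.3 and 21.5% of the reads in peaks in the 3 controls and 17.6, 17.3 and 17.8% in the 3 Fra2 libraries, a mean of 20.8% ± 1.14 against 17.6% ± 0.241 (SD, n = 3). Peaks over 100 kb from a gene took 8.48, 7.97 and 8.09% in the controls and 9.39, 9.45 and 9.2% in the Fra2 libraries. Neither pair of groups overlapped, and the exact two-sided permutation test gave p = 0.1 for both, which is the smallest value that 3 against 3 libraries allow. Promoters are the more accessible peaks, so levels were compared too, in 5 equal bins of mean level over the late control and late Fra2 libraries together. In the most accessible bin the median log2 fold change was -0.30 at promoters and -0.09 at other peaks, and in the least accessible bin -0.14 and 0.10. Within genes the order was the same. Of 10591 genes with both kinds of peak, the promoter median lay below the median of the gene's other peaks in 8411 (79.4%).

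The promoters that rose held the AP-1 letters in a larger share than the rest. The letters TGANTCA, the AP-1 core, which read the same on both strands, were found in 7.81% of all 32851 promoter windows of 300 bases. Of the 13634 windows that lay on a tested peak, 7.17% held them. Of the 111 windows on a higher peak, 41 held them (36.9%), and of 1925 on a lower peak, 59 (3.06%). These 111 windows lay on 105 distinct peaks and are not the same set as the 111 promoter peaks counted above, which were classed by protein-coding start sites. Windows of non-coding genes are included here: 58 of the 111 were of protein-coding genes, as were 23 of the 41 with a match. Base composition differed as well, with a median GC content of 46.7% in windows on higher peaks and 63.0% on lower ones. Within windows under 50% GC, the median log2 fold change was 0.06 with an AP-1 match (309 windows, 8.41% on higher peaks) and -0.16 without one (1310 windows, 3.74%). Between 50 and 60% GC it was -0.14 (413 windows, 3.63%) against -0.28 (3942 windows, 0.482%). At 60% GC or more it was -0.27 (256 windows) against -0.31 (7404 windows), and none of the windows with a match was on a higher peak. The difference between windows with and without a match was thus largest in the AT-rich promoters, and it was seen in the early libraries as well, with medians of -0.10 and -0.26 over all windows.

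**Figure D2:**
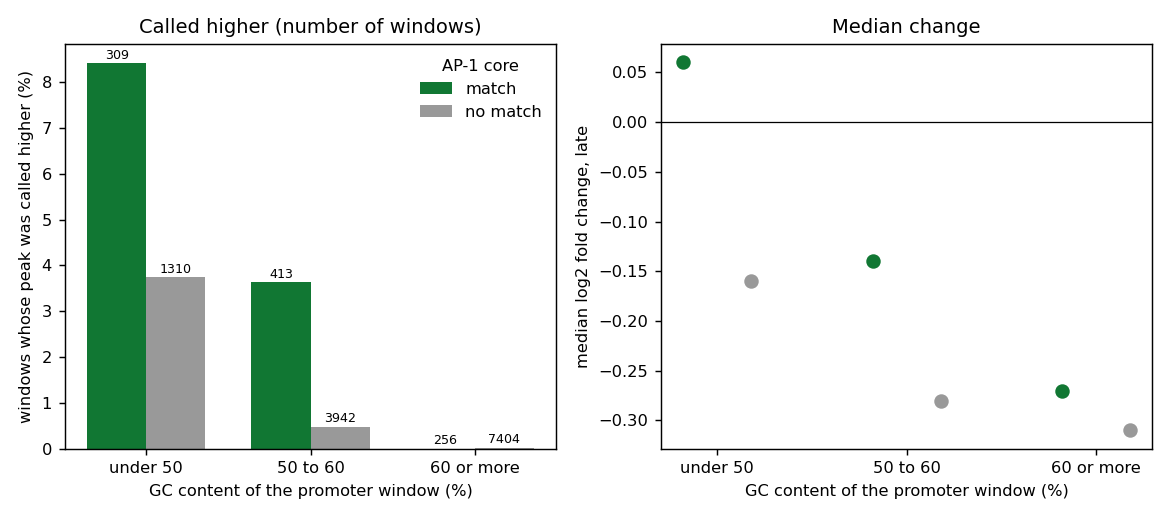
Left, share of promoter windows whose peak was called higher (%), by GC content of the window and by whether it held the AP-1 letters, with the number of windows over each bar. Right, median late log2 fold change of the same windows. Under 50% GC the medians are 0.06 with a match and -0.16 without one, and at 60% GC or more -0.27 and -0.31.

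The promoters that fell held CCAAT boxes and GC boxes in a larger share. CCAAT, the site of the general activator NF-Y, was found on either strand in 37.4% of all windows, in 53.1% of those on lower peaks and in 35.8% of those on peaks that were not called. Of windows with a match 19.6% were on lower peaks, against 10.7% without one, and the same order held in each of the 3 GC bands (9.31 and 3.5%, 18.4 and 8.45%, 23.2 and 13.2%). Windows with a match were also on more accessible peaks (median 14.5 against 9.53 CPM in the controls), where a change is easier to call. Median log2 fold changes were closer, -0.33 with a match and -0.26 without one, and in the early libraries they were -0.25 and -0.26. GGGCGG, a site of SP and KLF factors, was in 73.1% of windows on lower peaks and 61.9% of those on peaks not called. It was in 6.31% of those on higher peaks and in 35.7% of all windows, most of which lay on no tested peak. These letters are all G and C, so GC bands were compared here too. Under 50% GC, 7.56% of windows with a match were on lower peaks and 5.67% without one. Between 50 and 60% GC these were 14.9 and 11.0%, and at 60% or more 17.1 and 13.9%. Shares on higher peaks were 0.889 and 5.24%, 0.149 and 1.33%, and 0.0315 and 0.0% in the same bands. Windows with a match lay on more accessible peaks (median 12.8 against 7.87 CPM in the controls). TGTGGT, the RUNX core, was in 27.9% of windows on higher peaks, 10.8% of those on lower peaks and 12.6% of those on peaks not called (16.8% of all windows), and GGAATG, the TEAD core, in 22.5, 11.1 and 13.1% (14.7% of all). The CRE palindrome TGACGTCA, which AP-1 and CREB proteins can both bind, was in 1.8% of windows on higher peaks, 2.08% of those on lower peaks and 3.22% of those on peaks not called (1.79% of all). CACCTG, an E-box read by SNAI and ZEB repressors, was in 13.5, 15.8 and 17.0% (20.2% of all). The RUNX, TEAD, CRE and E-box letters were not compared within GC bands. All of these are matches of letters in promoter windows only, since no genome was at hand to read the distal peaks.

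The promoters given here as examples were chosen for a called peak with a match, so they illustrate these shares and add no support to them. Other higher promoters held no AP-1 match, among them Plekha8 (2.01) and R3hdm1 (1.15). The Odaph promoter peak measured 3.81, 4.65 and 3.96 CPM in the controls and 8.35, 6.99 and 6.75 CPM in the Fra2 libraries. All Fra2 libraries lay above all controls, and the log2 fold change was 0.83 ± 0.18 (SE; edgeR adjusted p = 0.00116). At Mmp10, which encodes a protease that digests matrix proteins and activates procollagenases, the promoter peak went from 5.75, 5.43 and 5.54 to 9.59, 7.89 and 8.04 CPM (0.62 ± 0.18, edgeR adjusted p = 0.0209), again without overlap. At Mmp1b it went from 3.36, 4.89 and 5.06 to 7.19, 6.56 and 6.63 CPM (0.60 ± 0.18, edgeR adjusted p = 0.0235). The groups did not overlap there either, but without late control 1 the Mmp1b peak lost its call (0.45, edgeR adjusted p = 0.129). Of the promoters that fell, Gstm2 went from 19.0, 19.2 and 23.3 to 11.0, 9.39 and 9.15 CPM (-1.06 ± 0.16, edgeR adjusted p = 6.74e-06), with every Fra2 library below every control. Arap1, which encodes a regulator of Arf GTPases and has a CCAAT box before its start site, went from 26.4, 32.9 and 28 to 13.9, 13.1 and 15.1 CPM (-1.05). Both stayed called with gene-end scaling, at -0.82 each.

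At Fosl2 itself, 8 of 36 peaks were called higher, most of them beyond the end of the gene, and 2 lower. The start-site peak was called with gene-end scaling but not with TMM or loess scaling. Fosl2 lies on chromosome 5 and is 21.4 kb long. The higher peak nearest to the start site lay 16.7 kb downstream of it, within the gene. A run of 7 neighbouring higher peaks spanned 5.71 kb from chr5:32158186 to 32163892, between 22.0 and 27.2 kb from the start site and past the end of the gene, with log2 fold changes of 0.71 to 1.25. The first of them went from 4.11, 3.20 and 3.35 to 7.15, 7.95 and 8.10 CPM, so that the Fra2 libraries were above every control (1.13 ± 0.17, edgeR adjusted p = 1.32e-05). The peak over the start site measured 7.17, 7.66 and 8.47 CPM in the controls and 8.48, 9.28 and 8.60 CPM with Fra2 guides (0.17 ± 0.16, edgeR adjusted p = 0.522), a difference that was not called. Every Fra2 library was above every control at this start-site peak, as at 16.7% of all tested peaks. With gene-end scaling it was called (0.41, edgeR adjusted p = 0.0346), and so was the early difference with TMM scaling (0.56 ± 0.16, edgeR adjusted p = 0.0118). The most accessible peak of the locus, 0.661 kb upstream, was at 42.0, 51.8 and 51.7 CPM and at 37.7, 36.8 and 39.7 CPM (-0.35 ± 0.15, edgeR adjusted p = 0.13). A peak 1.32 kb upstream was called lower (-0.51 ± 0.15, edgeR adjusted p = 0.0267), a call lost with loess scaling, gene-end scaling and 5 of the 6 single-library omissions. The other lower peak lay more than 5 kb downstream of the start site. Accessibility at the locus does not measure Fosl2 RNA, and no label says where the guides bind.

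Lpp, Tpm1, Csf1 and Fhit were among the 5 genes with most higher peaks. Tpm1 encodes tropomyosin 1, which lines actin filaments, and 23 of its 68 peaks were called higher and 3 lower (background 6.44% and 3.54%). None of the 7 peaks within 5 kb of its start site was called. Of 42 peaks more than 5 kb downstream, 20 rose, through the gene body and past its end, and 3 of 19 more than 5 kb upstream. The peak at chr9:67023301-67023802 went from 4.26, 5.01 and 5.54 to 9.97, 10.1 and 9.15 CPM, with no overlap (0.97 ± 0.17, edgeR adjusted p = 7.58e-05). Csf1 encodes the colony-stimulating factor that macrophages need, and 17 of its 53 peaks rose with none lower. Again none of 7 peaks near the start site was called, and 15 of the 17 lay 9.05 to 30.9 kb downstream of it and 2 lay upstream. Its peak at chr3:107741025-107741526 went from 3.06, 3.38 and 3.05 to 5.82, 7.25 and 7.49 CPM (1.11 ± 0.20, edgeR adjusted p = 0.000134), and the groups did not overlap. Runs of neighbouring higher peaks without an uncalled peak between them reached 9 at Tpm1 and 5 each at Ccn2 and Thbs1.

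Gse1, a chromatin-associated protein gene of 353 kb, had the most lower peaks, 35 of 145 with none higher. They were spread over the whole gene rather than held at one end. Its summed reads fell by 0.36 ± 0.05 on the log2 scale (edgeR adjusted p = 4.37e-05) and stayed called with gene-end scaling (-0.20). The peak at chr8:120518602-120519103 went from 6.87, 12.4 and 8.29 to 5.27, 4.16 and 4.36 CPM (-1.0 ± 0.19, edgeR adjusted p = 0.000306), with late control 2 the highest and no overlap between groups. Gli2, a transcription factor of the Hedgehog pathway, had 12 of 64 lower, Zmiz1 12 of 109, and Zfpm1, a GATA cofactor, 9 of 31. Gli2 and Zmiz1 also had 2 higher peaks each. Called peaks also clustered more generally: 27.8% of lower peaks had another lower peak within 10 kb, as 12.6% of all tested peaks had, and 18.1% of higher peaks another higher one, as 12.8% of all tested peaks had.

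**Figure D3:**
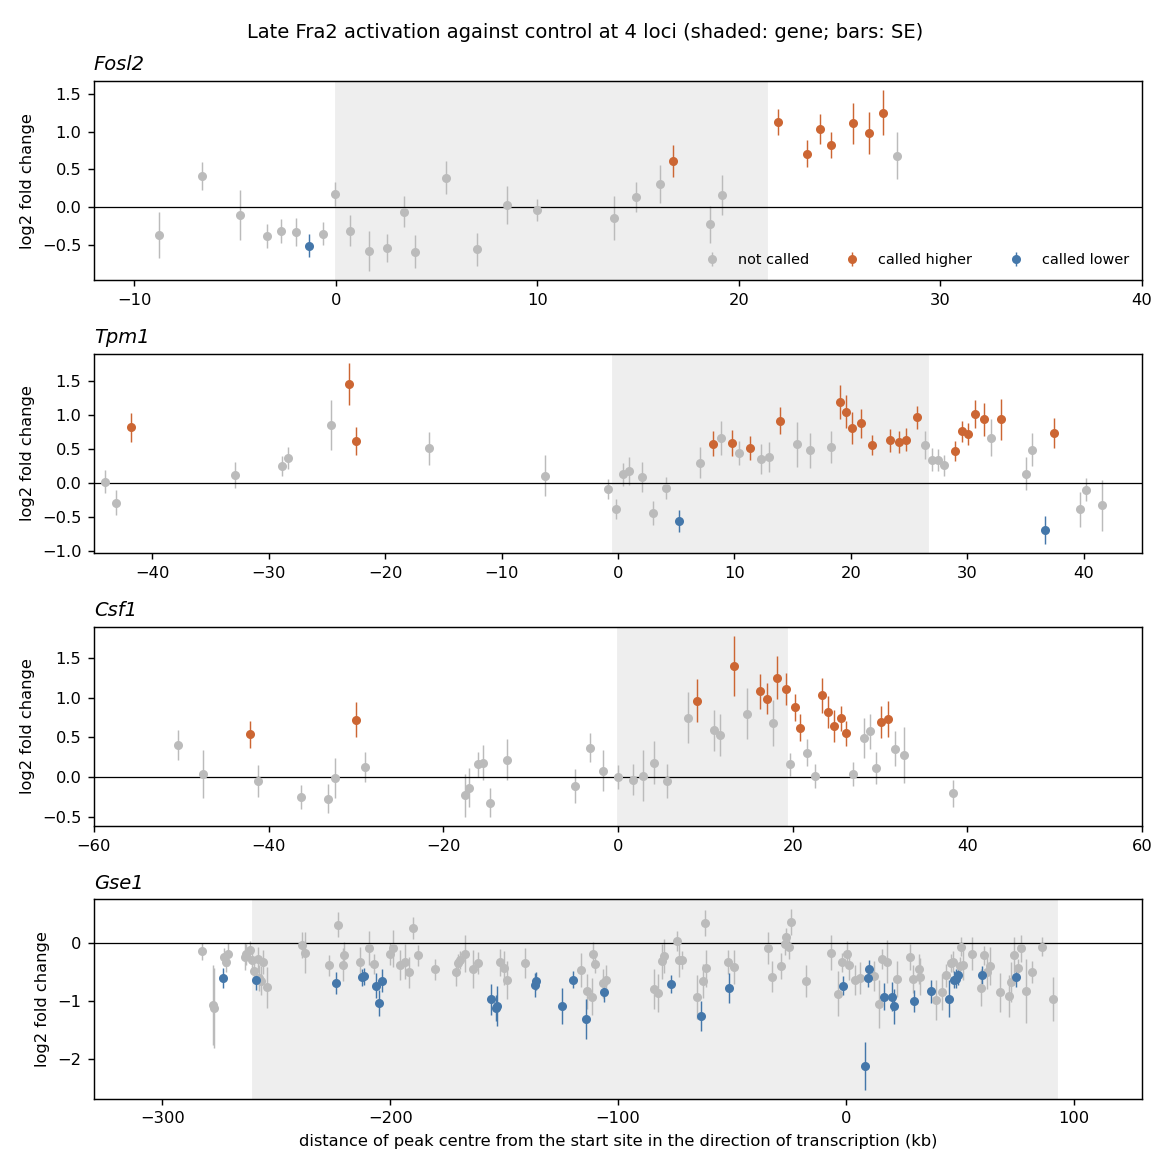
Late log2 fold change of each peak (points, with SE) by its distance in kb from the start site, in the direction of transcription, at Fosl2, Tpm1, Csf1 and Gse1, with the gene shaded. For Gse1 the start site is the most upstream one in the promoter table and lies inside the gene interval. Higher peaks sit mostly downstream of the start sites of Fosl2, Tpm1 and Csf1, with 3 upstream at Tpm1 and 2 at Csf1, and the 35 lower peaks of Gse1 are spread over the gene.

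Among single peaks, 7 of the 8 smallest p-values with Fra2 higher, 1 peak a gene, fell at Plekha8, Sh3yl1, Prkg1, Cse1l, Csnk1g2, Gm5544 and Add1. The promoter peak of Plekha8, a lipid transfer protein gene, at chr6:54602807-54603308 was at 1.79, 1.63 and 1.83 CPM in the controls and at 6.63, 7.47 and 7.18 CPM with Fra2 guides (2.01 ± 0.22, edgeR adjusted p = 3.04e-08). Every Fra2 library was thus several times above every control. In the gene body of Sh3yl1, a phosphoinositide-binding adaptor, a peak went from 2.91, 2.84 and 2.38 to 8.56, 7.73 and 9.58 CPM (1.67). The remaining 5 had log2 fold changes of 1.43 to 1.95, and in none of the 7 did the groups overlap, as the choice of these peaks required.

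With Fra2 lower, the smallest p-values fell at Aff3, Ttc34, Hhat, Wnt11, Aspg, Akap6, Skap2 and Gli2. A peak 60.6 kb from Aff3, at chr1:38690576-38691077, went from 7.47, 5.97 and 7.19 to 1.93, 2.03 and 2.33 CPM (-1.72 ± 0.20, edgeR adjusted p = 8.16e-08). A peak 27.4 kb from Hhat, which encodes the acyltransferase that palmitoylates Hedgehog ligands, went from 4.11, 3.56 and 4.33 to 0.642, 1.17 and 0.86 CPM (-2.18 ± 0.26, edgeR adjusted p = 8.59e-08). In the body of Wnt11, a ligand of non-canonical Wnt signalling, a peak went from 9.56, 8.39 and 10.5 to 3.81, 3.63 and 2.95 CPM (-1.44 ± 0.17, edgeR adjusted p = 8.67e-08). A peak in Gli2 went from 5.3, 5.73 and 6.52 to 2.14, 1.28 and 2.46 CPM (-1.58). In Skap2, a Src-associated adaptor, the peak went from 11.8, 11.5 and 12.1 to 4.79, 5.44 and 5.03 CPM (-1.22 ± 0.16). The early change there was -0.34 and was not called, but the test of the difference between times did not call this peak either. The only promoter among the 8 was that of Aspg, at 5.83, 11.5 and 10.1 CPM against 3.04, 2.67 and 4.05 CPM (-1.52). Late control 1 was the lowest control there and still above all 3 Fra2 libraries.

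**Figure D4:**
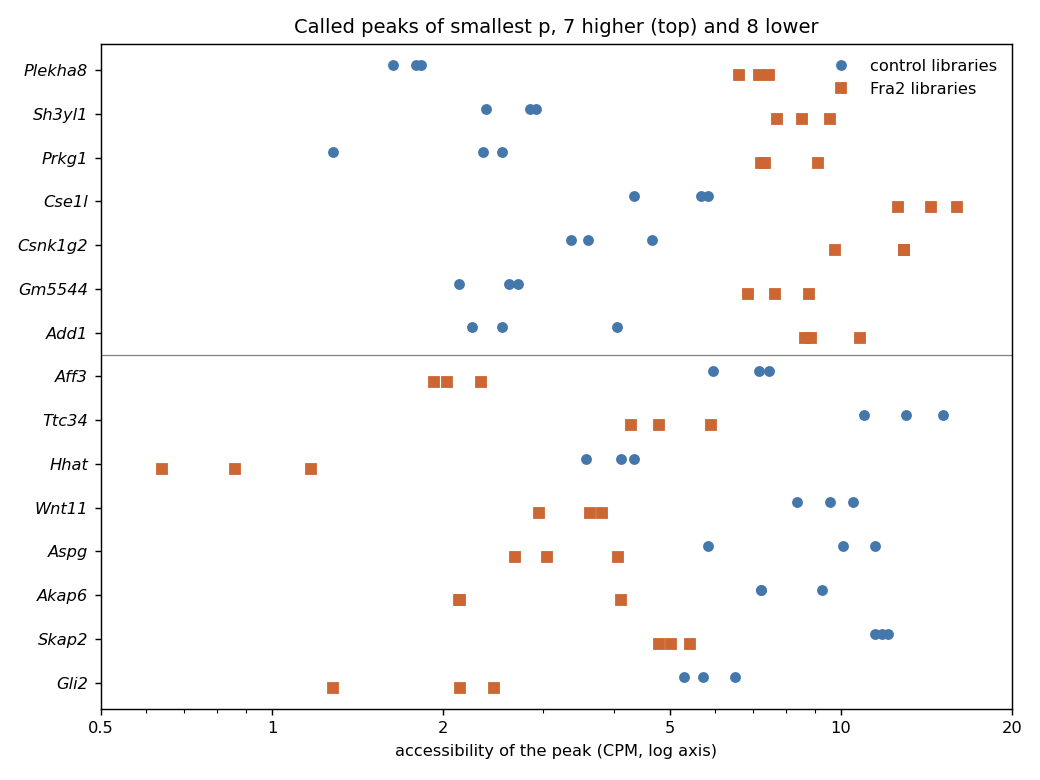
CPM (log axis) in each of the 3 control and 3 Fra2 libraries at 7 of the 8 higher and all 8 lower peaks of smallest p, 1 peak a gene. The groups do not overlap at any of the 15 peaks, which was a condition of choosing them; Hhat has the lowest Fra2 values, 0.642 to 1.17 CPM.

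Gene groups were described by how many of their peaks were called, beside 6.44% higher and 3.54% lower over all tested peaks and a median of -0.01. With gene-end scaling every gene list had more higher than lower peaks. Ligands of the EGF, FGF and PDGF type were among the groups with the largest share of higher peaks, 64 of 549 (11.7%) against 13 lower (2.37%), with a median of 0.11. Csf1 gave 17 of the 64, Pdgfd 9 and Nrg1 6. Fgf2, the gene of basic fibroblast growth factor, had 4 higher peaks. The strongest of them, 6.75 kb from the gene, went from 1.94, 2.11 and 2.01 to 5.52, 5.44 and 4.91 CPM (1.39 ± 0.23, edgeR adjusted p = 5.09e-05). At the receptors of these ligands and related kinases 18 of 644 peaks rose (2.8%) and 29 fell (4.5%), which became 77 and 1 with gene-end scaling. With 1 late library left out the receptor counts were 4 to 19 higher and 7 to 30 lower, and without late Fra2 3 the split turned to 11 higher and 9 lower. Ddr1, a collagen receptor kinase, had 6 of the 29. The ligand list had 49 higher peaks without late control 1, 41 without late control 2, 26 without late control 3, and 36, 35 and 42 without late Fra2 1, 2 and 3, with a median of 0.10 to 0.15 throughout.

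At known AP-1 targets and wound genes 66 of 719 peaks rose (9.18%) and 9 fell (1.25%), and the median was 0.17. The higher peaks lay at 16 of the 30 genes, among which the architectural DNA-binding protein gene Hmga2 held 10, the hyaluronan receptor gene Cd44 9, the matrix gene Tnc 9 and the prostaglandin synthase gene Ptgs2 5. Ccl2, a monocyte chemokine of the same list, had a lower peak 16.0 kb away (-1.09 ± 0.21, edgeR adjusted p = 0.000377). The list was drawn up with earlier results of these libraries known, so its direction is not independent evidence. It had 69 higher peaks without late control 1, but 43 without late control 2, 30 without late control 3, and 40, 41 and 43 without late Fra2 1, 2 and 3. At the genes of AP-1 itself 11 of 216 peaks rose and 12 fell. Of the 11, 8 were at Fosl2 and 2 at Jun. A peak in the body of Fos went from 3.14, 3.62 and 4.57 to 1.8, 2.35 and 1.53 CPM (-1.0 ± 0.22, edgeR adjusted p = 0.00166), with no overlap.

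Among matrix genes, those of glycoproteins had more higher than lower peaks, and those of collagens more lower than higher except with gene-end scaling. Glycoprotein and proteoglycan genes had 66 of 836 peaks higher (7.89%) and 15 lower (1.79%). Thbs1, an adhesive matrix protein that activates latent TGF-beta, had 14 of 39 peaks higher, Fn1 (fibronectin) 9 of 83, Tnc (tenascin C) 9 of 107, Lama2 8 of 41 and Ccn2 6 of 23. Ccn1 had 5 lower and 2 higher peaks. Its strongest lower peak, 1.88 kb outside the gene, went from 21.8, 20.6 and 22.9 to 14.4, 12.6 and 12.2 CPM (-0.73 ± 0.16, edgeR adjusted p = 0.00174). Collagen genes had 15 of 710 peaks higher (2.11%) and 36 lower (5.07%), a split that turned to 64 higher and 4 lower with gene-end scaling. It all but closed without late Fra2 1 (8 higher, 9 lower) and without late control 3 (8 and 11), and lower counts were 17 without late control 2, 13 without late Fra2 2 and 22 without late Fra2 3. Col1a1, the main fibrillar collagen gene of fibroblasts, had 8 lower peaks of 37 and none higher. Its summed reads went from 284, 277 and 313 CPM to 245, 232 and 242 CPM (-0.28 ± 0.05, edgeR adjusted p = 0.000186), and with gene-end scaling the change was -0.12 (edgeR adjusted p = 0.039). Basement membrane collagens Col4a1 and Col4a2 had 4 and 6 lower peaks, and Col4a1 had 1 higher. Matrix enzymes and their inhibitors had 53 of 544 higher (9.74%) and 28 lower (5.15%), with Adamts2 (8 lower and 2 higher) as the largest contributor to the lower peaks.

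Of 408 peaks at cytokine genes 33 rose (8.09%) and 19 fell (4.66%), and Csf1 alone held 17 of the 33. The lower peaks included 3 each at Nfkb2 and Relb, which encode subunits of the non-canonical NF-kappa-B dimer. Summed reads fell at Relb from 85.3, 99.7 and 96.1 to 70.1, 62.1 and 70.5 CPM (-0.47 ± 0.08, edgeR adjusted p = 0.00013), without overlap. They fell at Nfkb2 as well (-0.37 ± 0.07) and at Rela (-0.33 ± 0.07), and all 3 were still called lower with gene-end scaling (-0.32, -0.21 and -0.17). The inhibitor gene Tnfaip3 moved the other way (0.31 ± 0.06, edgeR adjusted p = 0.000711). Serum-response genes had 14 higher and 18 lower of 339 peaks, with 3 higher at Vcl and 2 each at Fhl2 and Myocd. Of the lower peaks, 5 of 15 at the immediate early factor Egr1 and 3 of 8 at Egr3 made up the largest numbers. Egr1 sums went from 119, 126 and 124 to 87.0, 88.2 and 95.5 CPM (-0.45 ± 0.06, edgeR adjusted p = 9.17e-06), and Egr3 sums changed by -0.35 ± 0.06. Both kept their call with gene-end scaling (-0.29 and -0.19), as did Junb, an AP-1 partner gene (-0.33 ± 0.07, then -0.17).

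**Figure D5:**
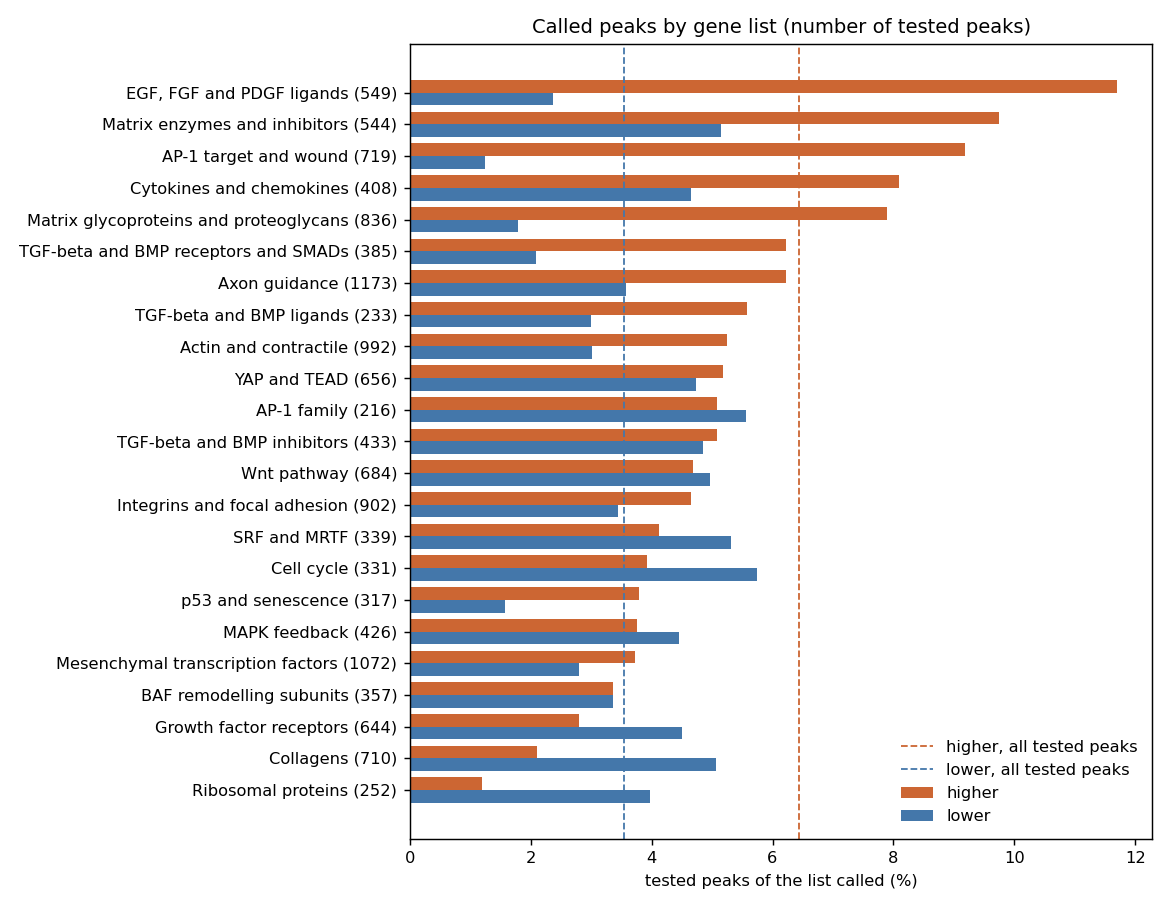
Share of the tested peaks of each gene list called higher or lower (%, bars from 0), with dashed lines for all tested peaks (6.44% higher and 3.54% lower) and the number of tested peaks in brackets. The ligand list has the largest share higher, 11.7%, and collagens have 2.11% higher and 5.07% lower with TMM scaling, a split that turns to mostly higher with gene-end scaling.

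In the TGF-beta and BMP family, some genes had called peaks of mostly one direction, and others, such as Tgfb2 with 3 higher and 2 lower and Smad2 with 2 of each, held both. Inhba, which encodes the activin A subunit, had 6 of 22 peaks higher, and its sums rose from 89.3, 75.9 and 76.7 to 104, 111 and 107 CPM (0.42 ± 0.06, edgeR adjusted p = 2.94e-05). The BMP receptor gene Bmpr1b had 10 of 47 higher and none lower (sum 0.35 ± 0.05). Smad6, an intracellular inhibitor of BMP signalling, had 7 of 47 lower and none higher, and the repressor gene Ski had 4 lower and 1 higher. The sums of Smad6 and Ski were called lower (-0.26 each), but not with gene-end scaling (-0.10 each). Over the whole lists the counts were 13 higher and 7 lower of 233 for ligands, 24 and 8 of 385 for receptors and SMADs, and 22 and 21 of 433 for inhibitors. Wnt pathway genes had 32 higher and 34 lower of 684, with Tcf7l2, a nuclear effector, at 5 lower. Axon guidance genes had 73 higher and 42 lower of 1173. The semaphorin gene Sema5a had the most higher peaks (12, with 2 lower) and the ligand gene Slit3 the most lower (7, with 2 higher).

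Actin and contractile genes had 52 of 992 peaks higher (5.24%) and 30 lower (3.02%), of which Tpm1 gave 23 of the higher. Lmod1 and Mylk, which act in smooth muscle, had 3 lower peaks each, and Acta2, the myofibroblast actin gene, had 1 lower and none higher. Genes of YAP and TEAD had 34 higher and 31 lower of 656, integrin and adhesion genes 42 and 31 of 902, and MAPK feedback genes 16 and 19 of 426. Mesenchymal transcription factor genes had 40 higher and 30 lower of 1072. Among them Prrx1 had 5 higher, while Nfix and Foxp1 had 8 lower each, and Foxp1 also had 2 higher. p53 and senescence genes had 12 higher and 5 lower of 317. Subunit genes of the BAF remodeller, with which AP-1 is known to work, had 12 higher and 12 lower of 357, and ribosomal protein genes 3 and 10 of 252. In the YAP and TEAD, MAPK feedback, Wnt, BAF, serum-response, AP-1 and TGF-beta inhibitor lists, which had nearly as many higher as lower peaks, the larger side changed with the library left out.

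Of 331 peaks at cell-cycle genes 13 rose and 19 fell, a split that was 17 and 17 with loess, 7 and 7 without late control 3, 10 and 7 without late control 2, 10 and 8 without late Fra2 1 and 8 and 5 without late Fra2 2. Of the sums of 32 genes 10 were lower and 3 higher, beside 10.6% lower and 13.3% higher over all genes. The 10 were Ccna2, Ccnd3, Ccne1, Ccne2, Mcm2, Pcna, Mki67, Aurkb, Cdc20 and Myc. Pcna, the sliding clamp of DNA polymerase, went from 39.6, 48.6 and 48.5 to 34.1, 34.6 and 33.1 CPM (-0.43 ± 0.09, edgeR adjusted p = 0.000911), with no overlap and late control 1 nearest to the Fra2 libraries. The promoter peak of Mcm6 went from 12.4, 18.9 and 18.5 to 9.97, 8.48 and 10.4 CPM (-0.80 ± 0.17, edgeR adjusted p = 0.001). Only 1 of the 10 sums was also called lower with gene-end scaling, that of Pcna (-0.27), and 8 genes of the list were then higher. Fewer cells of a kind and less accessibility per cell cannot be told apart in these bulk libraries. Among markers of other cell types, epithelial genes had 11 higher and 3 lower of 110 peaks, endothelial genes 9 and 6 of 188, macrophage genes 1 and 3 of 89, and adipocyte genes 5 and 14 of 205. Promoter peaks were called lower at the adipocyte markers Cebpa (-0.64) and Dlk1 (-0.85) and at the neural marker Map2 (-0.53). None of an epithelial, endothelial, macrophage or muscle marker was called, and the part of such cells in the results was not tested.

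Summed over each gene's peaks, 2441 of 18301 genes rose (13.3%) and 1942 fell (10.6%), together 23.9% called. With gene-end scaling the counts were 6849 and 364. The smallest p-values with Fra2 higher were at Agbl1, Trpc6, Grb14, Mctp1 and Slc25a21. Agbl1, a carboxypeptidase gene, had 14 of 39 peaks higher, and its sums went from 97.4, 90.1 and 87.3 to 148, 150 and 138 CPM (0.67 ± 0.05, edgeR adjusted p = 1.65e-08). Trpc6, a calcium-permeable channel gene, went from 79.1, 74.8 and 76.3 to 117, 111 and 108 CPM (0.55 ± 0.05, edgeR adjusted p = 9.34e-07). Neither pair of groups overlapped. With Fra2 lower they were at Zfyve21, Pdlim7, Egr1, Il17b and Cpt1c. Pdlim7, an actin-associated adaptor gene, had 8 of 25 peaks lower and went from 222, 254 and 254 to 187, 185 and 191 CPM (-0.37 ± 0.05, edgeR adjusted p = 8.06e-06). Zfyve21 (-0.51) and Cpt1c (-0.54) had larger changes over few peaks, and Il17b lost its call when only peaks within 10 kb of the gene were summed (-0.12, edgeR adjusted p = 0.286). Of the 18301 genes, 5754 had a higher peak, 4818 a lower peak, 1801 both and 9530 neither. Among the ligands 12 of 27 sums rose and none fell, and among AP-1 targets 12 of 30 rose and none fell, both also with gene-end and loess scaling free of lower calls.

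The early libraries, which share no sample with the late ones, were read at the same peaks. Sample labels place the early time at day 3 and the series design at day 4, but early control 3 is itself labelled day 4. That library held 6750562 reads in peaks, against 19388422 and 13965175 in early controls 1 and 2. It is part of the early control group used here and of the fit behind the late calls. Of the late higher peaks 95.0% were also above the controls early, as 47.3% of all tested peaks were, and 7351 (55.3%) were called higher early, when 10.1% of all tested peaks were. Of the late lower peaks 92.0% were below the controls early, as 52.7% of all tested peaks were, and 1603 (21.9%) were called lower, against 4.92% of all peaks. The median early changes were 0.75 and -0.34 for peaks whose late medians were 0.87 and -0.63. Only 9 late higher peaks were called lower early, and 11 late lower peaks higher. A direct test of the difference between times called 193 peaks, of which 26 were late higher and 16 late lower peaks, with 19740 peaks at an unadjusted p under 0.05. The early split by position had the same shape, with 1.11% of promoter peaks higher and 7.87% lower, and 16.0% of peaks over 100 kb from a gene higher and 2.57% lower.

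The authors' own MACS2 peaks, called in each library, come from the same reads as the counts, so their overlap with called peaks follows from the choice of those peaks and is given as a description. They list 160830, 209512 and 215813 peaks in the controls and 287438, 266259 and 236536 in the Fra2 libraries. Of all tested peaks 62.0, 76.8 and 77.2% overlapped a peak of the 3 controls and 92.6, 88.8 and 83.3% one of the Fra2 libraries. For late higher peaks these shares were 48.6, 66.4 and 63.9% against 99.7, 99.1 and 96.9%. For late lower peaks they were 91.9, 96.6 and 97.3% against 89.3, 85.4 and 82.1%. All 6 lists held 5808 higher peaks (43.7%), 5710 lower peaks (78.2%) and 53.8% of peaks not called by edgeR. A further 2876 higher peaks (21.6%) were in all 3 Fra2 lists and no control list, as were 4.16% of peaks not called, and 143 lower peaks (1.96%) were in all 3 control lists and no Fra2 list, as were 0.0538% of peaks not called. The length of a list follows depth as well as accessibility, and late control 1, the shallowest library, had the shortest list.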

How the data were processed

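Omni-ATAC-seq was done on 15 libraries of MEFs, 6 of which are compared here. The authors deposited raw read counts per consensus peak for all libraries, and MACS2 peak lists per library on build mm10, per the submitters' processing notes; no label or header names the aligner, the consensus method or the versions. In the deposited peak lists the values are a fold enrichment ratio over local background and -log10 p and q, with a smallest -log10 p of 2.04 to 2.42 per library; they were used only to describe each list and its overlap (1 base or more) with consensus peaks. Counts were tested as deposited.

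Of 206367 peaks, 206349 passed edgeR's filterByExpr. One quasi-likelihood fit (edgeR 4.0.16, limma 3.58.1, R 4.3.3) held all 15 libraries in 5 groups with TMM factors, and the contrast was late Fra2 minus late control. SE is the absolute log2 fold change divided by the square root of F. CPM are scaled by TMM. Each peak was given the nearest protein-coding gene up to 100 kb away (RefSeq, GRCm38.p6; 88.67% of peaks), and counts over a gene's peaks were summed for the gene test. Promoter windows came from the same source (32851 rows, for 17492 of 21887 protein-coding genes, none on chromosome 18), so some genes such as Fn1 have no promoter class. No gene models with exons were used. A window lay on a peak when they shared 150 bases or more. The edgeR steps were tested on simulated counts.

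Genes are named by rule: called Fosl2 peaks within 10 kb, the 8 peaks of smallest p in each direction, the 5 genes with most called peaks each way, the called peak of smallest p of each list, and the 5 gene sums of smallest p; list members with called sums and the promoters printed were added after their values were seen. A few items that these rules name are not reported here. Members and lists were chosen with earlier results of these data known. The closing section gives the alternatives: DESeq2 1.42.0, loess and gene-end scaling, no filter, only the 6 late libraries, a replicate block, and each library left out. Intervals between replicates cover the spread of libraries, and a floor of 3 counts covers counting error only. Python 3.11.15, pandas 2.3.3, numpy 2.4.6, scipy 1.17.1 and matplotlib 3.10.9 made the summaries and figures.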

Additional observations from a re-analysis of the deposited data

How the results depend on the processing

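Peaks called higher numbered 13297 with TMM factors, 35487 with gene-end scaling, 19181 without early control 3 and 6391 to 11644 with 1 late library left out. Peaks called lower numbered 7306, against 1841 with gene-end scaling, 14628 with only the 6 late libraries in the fit, 10979 with the replicate block, 14603 without early control 3, and 2441 to 7608 with 1 late library left out. At promoters, 111 higher peaks became 587 with gene-end and 189 with loess scaling, 180 without early control 3 and 53 to 90 with 1 late library left out. The 2117 lower promoter peaks became 518, 1396, 4711 and 483 to 2888 under the same settings, 4679 with the 6 late libraries alone and 3203 with the replicate block. Gene sums called higher went from 2441 to 6849 with gene-end scaling, to 3291 without early control 3 and to 1552 to 2409 with 1 library left out, and those called lower from 1942 to 364, to 2791 and to 963 to 2018. The share of late lower peaks also called lower early, 21.9%, was 8.28% with gene-end scaling, 34.2% with loess and 40.5% without early control 3. No named peak and none of the gene sums of smallest p changed direction under these settings, but with gene-end scaling the called sums of Zmiz1 (-0.13 to 0.03), Wnt11 (-0.14 to 0.01), Tcf7l2 (-0.13 to 0.02), Col4a1 (-0.12 to 0.04) and Col4a2 (-0.13 to 0.03) turned and lost their call. Of 87 named peaks, 1 lost its call with DESeq2, 3 with loess, 4 with gene-end scaling and 1 to 10 with 1 late library left out. The cause of these changes was not tested. The fits that leave a library out also hold fewer libraries, and the part of that was not tested either. Same-numbered Fra2 and control libraries did not deviate together (correlations -0.0904, -0.0264 and -0.0089), so the numbers were not taken to pair the samples; with the replicate block 16773 peaks were higher, and 2858 gene sums higher and 2495 lower.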

Other observations

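Chromosomes differed in the balance of calls. Chromosome 11 had 4.39% of its tested peaks higher and 5.48% lower, and chromosomes 17, 19 and 7 had 4.77, 5.07 and 5.18% higher with 4.41, 4.72 and 4.72% lower. Chromosomes 14, 16 and 3 lay at the other end, with 8.11, 8.08 and 7.98% higher and 2.68, 2.76 and 2.74% lower. Genes also differed in whether their peaks moved one way. At least 3 higher peaks and no lower one were found at 620 genes, and at least 3 lower peaks and no higher one at 218. Runs of higher peaks with no uncalled peak between them were also found in sparse regions, with 6 at Hs3st1, a heparan sulphate sulphotransferase gene (log2 fold changes 1.06 to 1.81), 6 at Plcl1 (0.83 to 1.39) and 5 at the neurexin gene Nrxn3 (0.87 to 1.88). Runs of 4 lower peaks were found at Arhgap28, a GTPase-activating protein gene (-1.49 to -0.77), and at Klf9, a Krüppel-like factor gene (-0.93 to -0.57).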
